A study of Homo sapiens with 2 samples.

Results

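Kinesins, centromere proteins and mitotic regulators were followed in LN229 cells, an established human glioblastoma line, after overexpression of the microRNA miR-127-3p. The genes were those on the array with a probe set annotated to a single symbol that names a kinesin (KIF, except KIF20B), a centromere protein (CENP), or 1 of 16 mitotic kinases, cyclins and spindle proteins. They numbered 80 of 19775 named genes and were measured by 165 probe sets. Transcripts were measured on Affymetrix arrays in total RNA from 2 cultures grown in DMEM with serum. One culture carried pSUPER.neo-miR-127-3p, a plasmid that transcribes small RNAs from a polymerase III promoter. The control culture carried pSUPER.neo without the microRNA. Whether the cultures were clones or pools is not given in the sources used here. The study asked which genes the microRNA regulates in this kind of cell. There was 1 array per group, so the differences have no replicate check and no p-value, and the number of arrays limits the precision.

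Cells divide by separating their chromosomes on a spindle of microtubules, and kinesins are the motors that use ATP to move along, slide or shorten those microtubules. Mitotic kinesins build and elongate the spindle, while many other kinesins carry vesicles, organelles and ciliary cargo. Centromere proteins mark the site where the kinetochore forms, and CDK1 with B-type cyclins, the Aurora kinases and PLK1 drive the steps of division. Many of these genes are transcribed late in the cell cycle, through promoters with CHR elements that the DREAM and MYBL2-FOXM1 complexes bind. A microRNA acts by pairing of its seed with sites in messenger RNAs, which lowers their level or translation.

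The mature sequence of miR-127-3p is shown because its seed decides which transcripts it can pair with. It is given from RefSeq (GRCh38.p14, chr14:100883035-100883056, plus strand), 5′ to 3′, with the seed, bases 2 to 8, in capitals.
miR-127-3p: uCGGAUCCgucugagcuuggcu
A transcript site that pairs with the whole seed reads GGAUCCG. No other mature microRNA in the RefSeq table had this seed. Transcript sequences were not searched for such sites, and the mature microRNA itself was not measured on these arrays.

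Promoters of 6 genes are shown because the results turn on them. CDK1 and MKI67 were lower with miR-127-3p, NUSAP1 and KIF20A were the highest of the mitotic genes, CENPV differed most, and KIF3B has been named in earlier work as a target of the microRNA. Each runs from 250 bases before to 50 bases after the annotated start, 5′ to 3′ on the gene's strand, from RefSeq (GRCh38.p14). Capitals mark matches, on either strand, to the CHR letters TTTGAA or TTCGAA and to the CCAAT box.
CDK1 (chr10:60778228-60778527, plus strand): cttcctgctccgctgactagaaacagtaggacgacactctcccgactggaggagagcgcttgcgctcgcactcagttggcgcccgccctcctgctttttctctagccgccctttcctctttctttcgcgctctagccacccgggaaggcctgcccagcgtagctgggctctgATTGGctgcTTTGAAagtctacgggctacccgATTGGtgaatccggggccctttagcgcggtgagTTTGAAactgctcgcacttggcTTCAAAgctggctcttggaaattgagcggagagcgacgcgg
MKI67 (chr10:128126374-128126673, minus strand): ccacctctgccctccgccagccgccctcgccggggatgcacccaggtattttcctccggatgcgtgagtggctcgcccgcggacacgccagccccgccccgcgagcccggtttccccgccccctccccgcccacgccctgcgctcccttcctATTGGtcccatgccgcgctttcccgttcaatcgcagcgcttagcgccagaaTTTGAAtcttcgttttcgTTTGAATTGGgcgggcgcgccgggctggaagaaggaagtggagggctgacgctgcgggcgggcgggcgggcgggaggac
NUSAP1 (chr15:41332631-41332930, plus strand): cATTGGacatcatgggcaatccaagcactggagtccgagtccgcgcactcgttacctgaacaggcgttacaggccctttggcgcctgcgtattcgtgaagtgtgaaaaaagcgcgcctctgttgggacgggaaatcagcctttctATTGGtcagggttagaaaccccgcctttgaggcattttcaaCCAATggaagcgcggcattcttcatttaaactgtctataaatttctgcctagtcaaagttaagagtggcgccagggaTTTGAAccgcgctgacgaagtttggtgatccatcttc
KIF20A (chr5:138178862-138179161, plus strand): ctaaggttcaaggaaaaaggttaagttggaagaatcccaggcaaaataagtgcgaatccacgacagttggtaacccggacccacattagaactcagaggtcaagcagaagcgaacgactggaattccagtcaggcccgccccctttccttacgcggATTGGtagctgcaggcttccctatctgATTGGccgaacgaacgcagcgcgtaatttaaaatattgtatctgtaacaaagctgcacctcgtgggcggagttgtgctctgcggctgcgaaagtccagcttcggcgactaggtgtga
CENPV (chr17:16353420-16353719, minus strand): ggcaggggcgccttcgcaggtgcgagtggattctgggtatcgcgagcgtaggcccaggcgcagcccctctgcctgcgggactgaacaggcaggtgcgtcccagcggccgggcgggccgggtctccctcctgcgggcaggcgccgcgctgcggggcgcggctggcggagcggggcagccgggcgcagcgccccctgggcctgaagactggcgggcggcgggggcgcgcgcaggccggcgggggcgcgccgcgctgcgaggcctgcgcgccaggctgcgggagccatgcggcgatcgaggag
KIF3B (chr20:32277401-32277700, plus strand): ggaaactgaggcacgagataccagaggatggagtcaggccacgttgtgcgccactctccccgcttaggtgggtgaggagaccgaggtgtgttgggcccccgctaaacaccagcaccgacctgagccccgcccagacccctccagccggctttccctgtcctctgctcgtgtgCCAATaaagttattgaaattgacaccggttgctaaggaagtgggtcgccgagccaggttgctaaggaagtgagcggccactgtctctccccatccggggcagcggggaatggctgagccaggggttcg
CDK1 has 2 windows in the table and the one with more matches is shown. It holds 3 matches to TTTGAA, MKI67 holds 2 and NUSAP1 holds 1. In MKI67 the second TTTGAA shares 1 letter with a CCAAT match on the other strand. KIF20A has CCAAT matches alone, KIF3B has 1 CCAAT match, and CENPV has none of these letters. No match says only that these letters are not in this window.

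The array signals are in arbitrary linear units, and both arrays lie on a common scale with a median of 83.3 with miR-127-3p, against 93.9 in control cells. A probe set was kept if its mean log2(signal + 1) over both arrays exceeded that of the median non-control probe set, a signal of about 83.0. The kept probe set with the highest mean stands for its gene, and 66 of the 80 genes had one. The log2 ratio is miR-127-3p minus control after subtraction of the median over all kept genes, so a positive value means higher with miR-127-3p. A threshold of 2-fold is a fixed size and not a test, and a gene said to be at a value has that log2 ratio. A signal below the array median is shown as a bound, with that median in its place. Probe sets of the same gene differed in log2 ratio with a pooled SD of 0.35 (88 probe sets of 37 of these genes) and of 0.44 over all genes. That spread lies within the arrays and holds no variation between cultures. GAPDH and ACTB had log2 ratios of 0.02 and 0.05, and GAPDH control probe sets had a 3′ over 5′ ratio of 0.97 with miR-127-3p, against 0.98 in control cells. For ACTB control probe sets that ratio was higher and less alike, 2.95 with miR-127-3p, against 3.36 in control cells.

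Of 3 marker lists, the glial and epithelial ones differed between the arrays, while the 4 mesenchymal markers above the filter, FN1, TGFBI, VIM and CD44, stayed within 2-fold, with log2 ratios from -0.15 to 0.47. SOX2, NES, S100B, FABP7 and OLIG2, genes of neural progenitors and glia, were above the median on both arrays, GFAP, the astrocyte filament, was below it on both, and the glutamate transporter SLC1A3 was above it with miR-127-3p alone. Of 11 epithelial markers on the array 10 were brighter in control cells, and 8 were below the median with miR-127-3p against 3 in control cells. Their summed signal was 7438 with miR-127-3p, against 92884 in control cells, and none was at 0. KRT18 made up most of the miR-127-3p sum, with 6906, against 44863 in control cells. Of the 6 markers above the filter 4 were below the array median with miR-127-3p and had passed through the control array, so their direction was set by the filter. KRT8 and KRT18 were above the median on both arrays and were lower with miR-127-3p by 55.4-fold and 6.55-fold. SOX2 and NES also passed 2-fold on the lower side, at -1.24 and -1.03. SLC1A3 passed it on the higher side, giving 2689 with miR-127-3p, against 73.9 in control cells. That control signal was below the array median, which leaves a bound of 28.1-fold higher. SLC1A3 had passed the filter through the miR-127-3p array, so its direction was set by the filter. The marker lists and the mitotic genes were read from these same arrays, and the part of the marker difference in the results was not tested. That both cultures were LN229 rests on the labels and was not tested here, and a difference in identity between the cultures cannot be told apart from the effect of the plasmid.

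Most of the kinesin, centromere and mitotic genes had similar signals on both arrays. With miR-127-3p none of the 66 was higher by 2-fold or more, against 5.06% of 11985 genes, and 5 were lower by that much, which is 7.58% against 8.67% of all genes. The count of lower genes is near the share among all genes. CENPV passed the filter through its control signal alone, and among the 63 genes above the median on both arrays 4 were lower, against 6.22% of all such genes. The 5 were CENPV, CDK1, KIF16B, AURKB and MKI67. Within 2-fold were 61 of the 66 and 10339 of the 11985 genes, the share to set beside the counts by role given below. The median log2 ratio was -0.05, beside 0 for all genes by construction, with quartiles of -0.42 and 0.24, beside -0.41 and 0.37. Of the 66 genes 36 had ratios below 0 and 30 above 0. Ratios within 0.5 of 0 were found for 66.7% of them and for 61.1% of all genes. At 1.5-fold, 5 of the 66 were higher, against 14.5% of all genes, and 12 were lower, against 18.1%. At 3-fold none was higher, against 1.57%, and CENPV alone was lower, against 3.94%. In these bulk cultures fewer cells in division and less of a transcript per cell cannot be told apart.

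**Figure D1:**
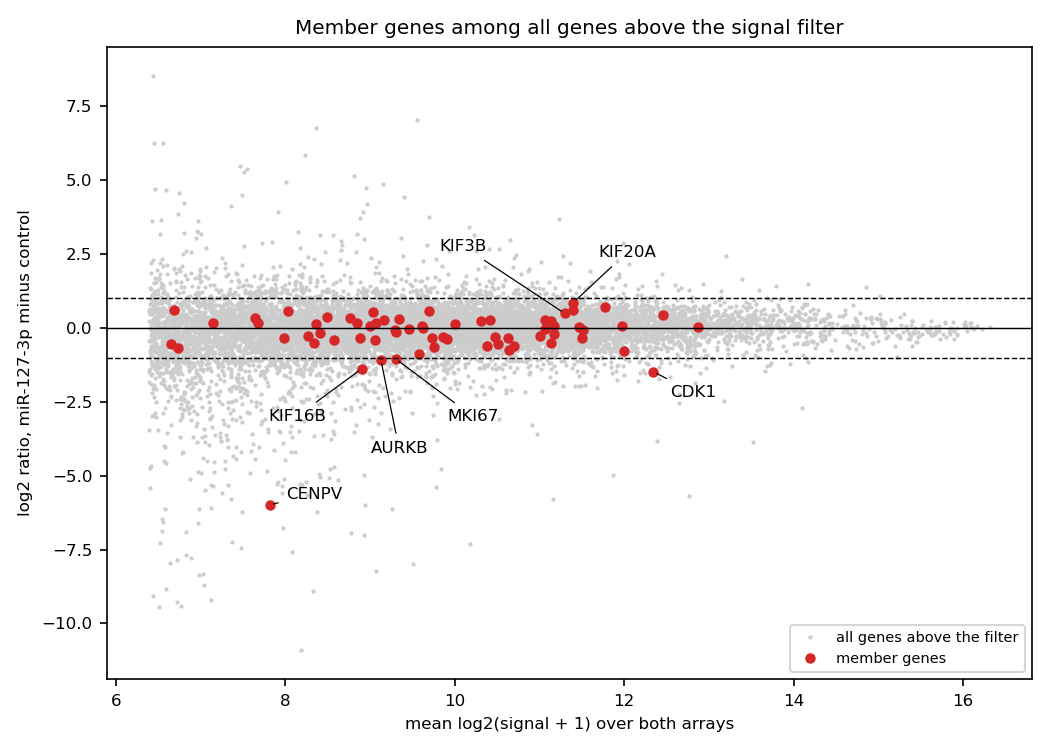
Log2 ratio (miR-127-3p minus control, median-centred) against the mean log2(signal + 1) of both arrays, for 11985 genes in grey and 66 kinesin, centromere and mitotic genes in red, with dashed lines at 2-fold. The red points crowd around 0, and CENPV is the only one of them far below the lower line, drawn as measured although its dim miR-127-3p signal gives only a bound of -4.41.

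Of the mitotic kinases and checkpoint genes, 8 in all, CDK1 and AURKB were lower by 2-fold or more and 6 were within 2-fold. The 2 lower genes are 25% of this short list, against 8.67% of all genes. CDK1, the kinase that starts mitosis, gave signals of 3125, 2002 and 1516 with miR-127-3p at its 3 probe sets above the filter, against 8629, 4407 and 3501 in control cells. All 3 were lower by more than 2-fold, with log2 ratios from -1.48 to -1.15, and the brightest was 2.78-fold lower. AURKB, the kinase of the chromosomal passenger complex that corrects faulty attachments to the spindle, gave 386 with miR-127-3p, against 807 in control cells, a log2 ratio of -1.07. Its second probe set gave 70.1 with miR-127-3p, below the array median, against 139 in control cells, and was at least 1.67-fold lower.

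AURKA, the related kinase of the spindle poles, stood on the other side of 0. Its brightest probe set gave 3333 with miR-127-3p, against 2182 in control cells, a log2 ratio of 0.60, and the next gave 2722 with miR-127-3p, against 2033 in control cells, a log2 ratio of 0.41. Its remaining probe set, just below the array median with miR-127-3p, was at least 1.18-fold lower. BUB1B, a checkpoint protein, was at -0.04, the kinase TTK at 0.06 and PLK1, the kinase of mitotic entry and exit, at 0.17. MAD2L1, which holds back the anaphase-promoting complex until attachment is complete, gave 1895 with miR-127-3p, against 2655 in control cells, a log2 ratio of -0.50, with 3 probe sets from -0.56 to 0.05. BUB1, a kinase of the same checkpoint, was at 0.14, giving 1080 with miR-127-3p, against 975 in control cells. A second BUB1 probe set gave 187 with miR-127-3p, against 89.2 in control cells, and stood at 1.04, but its control signal was below the array median, which leaves a bound of 1.96-fold higher.

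None of the cyclins that partner CDK1 reached 2-fold at any kept probe set. CCNB1 gave 4132 with miR-127-3p, against 3905 in control cells at its brightest probe set, and 908 with miR-127-3p, against 1486 in control cells at the other, log2 ratios of 0.07 and -0.72. CCNB2 gave 2862 with miR-127-3p, against 2787 in control cells, a log2 ratio of 0.03. CCNA2, the cyclin of S phase and early mitosis, gave 755 with miR-127-3p, against 953 in control cells, a log2 ratio of -0.35, and its second probe set was at -0.27. CDC20, which activates the anaphase-promoting complex, gave 2457 with miR-127-3p, against 2071 in control cells, a log2 ratio of 0.24. All 4 genes were within 2-fold, with a median of 0.05.

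Among the 4 spindle and chromosome proteins, both directions occurred. MKI67, the Ki-67 protein that coats mitotic chromosomes and serves as a marker of cycling cells, gave 440, 377, 441 and 237 with miR-127-3p, against 902, 1025, 597 and 426 in control cells. All 4 probe sets were lower, with log2 ratios from -1.45 to -0.45, and 2 of them passed 2-fold. All 4 carry a suffix that marks possible cross-matching. TOP2A, the topoisomerase that untangles sister chromosomes, gave 3148 with miR-127-3p, against 5311 in control cells at its brightest probe set, a log2 ratio of -0.77, and the other kept probe set was at -0.65. NUSAP1, which bundles spindle microtubules near chromosomes, was higher, giving 4489 with miR-127-3p, against 2730 in control cells, a log2 ratio of 0.71, and its second probe set was at 0.30. TPX2, the activator of AURKA, gave 2370 with miR-127-3p, against 1933 in control cells, a log2 ratio of 0.28.

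**Figure D2:**
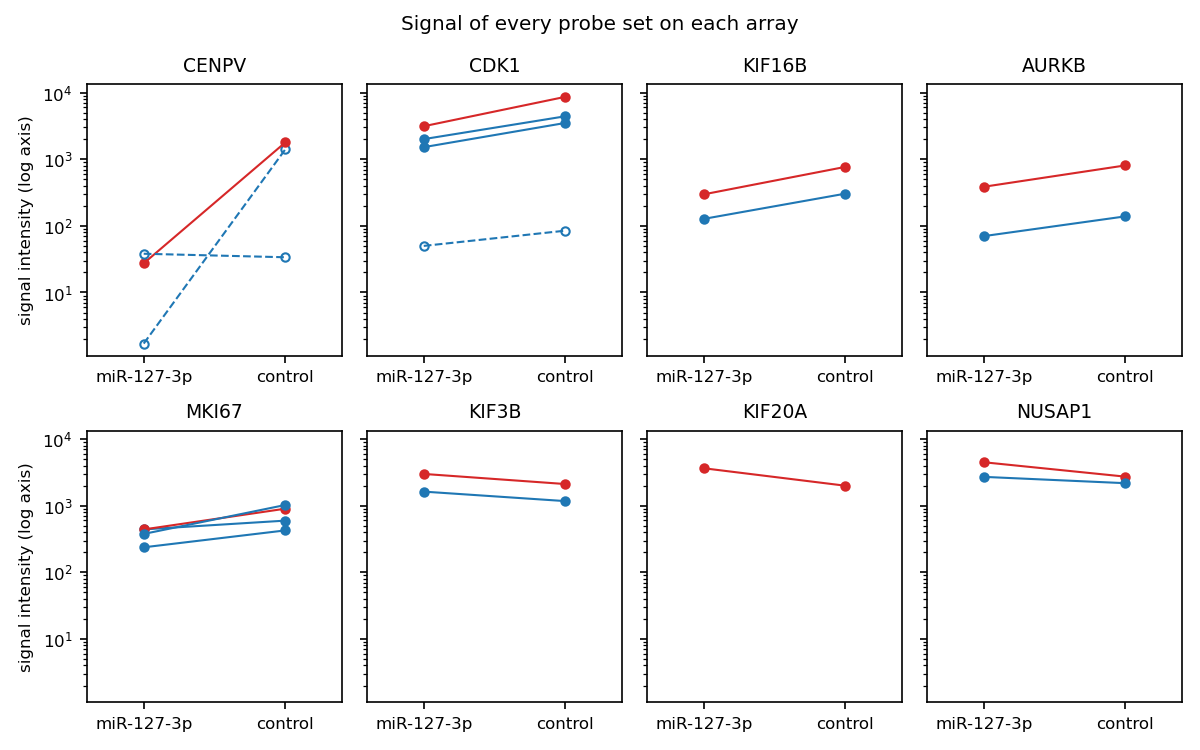
Signal intensity (log axis) of every single-symbol probe set of 8 genes on the miR-127-3p array (left) and the control array (right), in red for the probe set that stands for the gene, in blue for others, and dashed with open points for those below the filter. All lines of CDK1, KIF16B, AURKB and MKI67 slope up towards the control, those of KIF3B, KIF20A and NUSAP1 slope down, and 2 of the 3 CENPV lines are steep, with control signals of 1783 and 1401.

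The 12 mitotic kinesins stayed within 2-fold, as did 10339 of all 11985 genes. Of the 12, 8 had ratios below 0 and 4 above, and their median was -0.30. KIF11, the bipolar motor that pushes the spindle poles apart, had the lowest ratio, giving 562 with miR-127-3p, against 1031 in control cells, a log2 ratio of -0.89. KIF20A, a motor of the central spindle needed for cytokinesis, had the highest, giving 3647 with miR-127-3p, against 1995 in control cells, a log2 ratio of 0.86. KIF11 and KIF20A each rest on 1 probe set. KIF23, the motor of the centralspindlin complex, was the other motor of cell cleavage above 0, giving 1008 with miR-127-3p, against 677 in control cells, a log2 ratio of 0.56, and its second probe set was at 0.60.

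KIF4A, a motor on chromosome arms and the central spindle, gave 692 with miR-127-3p, against 1078 in control cells, a log2 ratio of -0.65, and transcripts of its near-identical copy KIF4B could add to that signal. KIF2C, which depolymerises microtubules at kinetochores, was at -0.63, and its second probe set was nearer 0, at -0.07. KIF14, which recruits citron kinase to the cleavage site, was at -0.59 and -0.23. The rest were KIF18B at -0.38, KIF15 at -0.34, KIFC1 at -0.26, the kinetochore motor CENPE at -0.13, KIF22 at 0.13 and KIF18A, which dampens chromosome movement, at 0.38. A second KIF22 probe set gave 147 with miR-127-3p, against 70.2 in control cells, a log2 ratio of 1.04, but with its control signal set to the array median the bound is 1.55-fold.

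Of 15 genes of centromere chromatin and the inner kinetochore all stayed within 2-fold, as did 10339 of all 11985 genes. Ratios below 0 were found for 11 of the 15. The median was -0.22. CENPA, the histone H3 variant that marks the centromere, gave 616 with miR-127-3p, against 636 in control cells, a log2 ratio of -0.06. CENPC, which links that chromatin to the outer kinetochore, was at -0.17, and CENPB, which binds a DNA box in centromere repeats, was the highest, giving 493 with miR-127-3p, against 383 in control cells, a log2 ratio of 0.35. The lowest was CENPU, a subunit of the inner kinetochore, giving 1236 with miR-127-3p, against 2044 in control cells, a log2 ratio of -0.74. Its other probe sets were at -0.55 and 0.17.

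Other subunits of the same assembly lay on both sides of 0. CENPT gave 82.4 with miR-127-3p, below the array median, against 119 in control cells, at least 1.44-fold lower. It had passed the filter through the control array, so its direction was set by the filter. CENPO was at -0.52, CENPM at -0.42, CENPQ at -0.41, CENPK at -0.30, CENPW at -0.22 and CENPH at -0.03. CENPX was at 0.02 and CENPL at 0.30, and CENPI was at 0.17 but at -0.62 at its other kept probe set. CENPN, which reads CENPA nucleosomes, was at -0.34, giving 2580 with miR-127-3p, against 3247 in control cells at its brightest probe set, a log2 ratio of -0.52 at another, and at -1.31 at one more, where it gave 937 with miR-127-3p, against 2314 in control cells. That was the only CENP gene besides CENPV with a kept probe set past 2-fold.

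CENPV, a protein of centromeres and interphase microtubules, showed the largest difference of the 66 genes. It had passed the filter through the control array, so its direction was set by the filter. Its brightest probe set gave 27.4 with miR-127-3p, below the array median, and 1783 in control cells, and was at least 21.3-fold lower with the dim signal set to the array median. That probe set carries the suffix of possible cross-matching. A second probe set gave 1.71 with miR-127-3p, against 1401 in control cells, at least 16.8-fold lower, although its mean fell below the filter. The last gave 38.1 with miR-127-3p, against 33.8 in control cells, below the median on both arrays. CENPF, a large protein of the outer kinetochore, gave 2851 with miR-127-3p, against 2976 in control cells, a log2 ratio of -0.07. The epithelial markers were lower on the same array as CENPV, and of these KRT8 gave 307 with miR-127-3p, against 16926 in control cells, and their part in its difference was not tested.

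**Figure D3:**
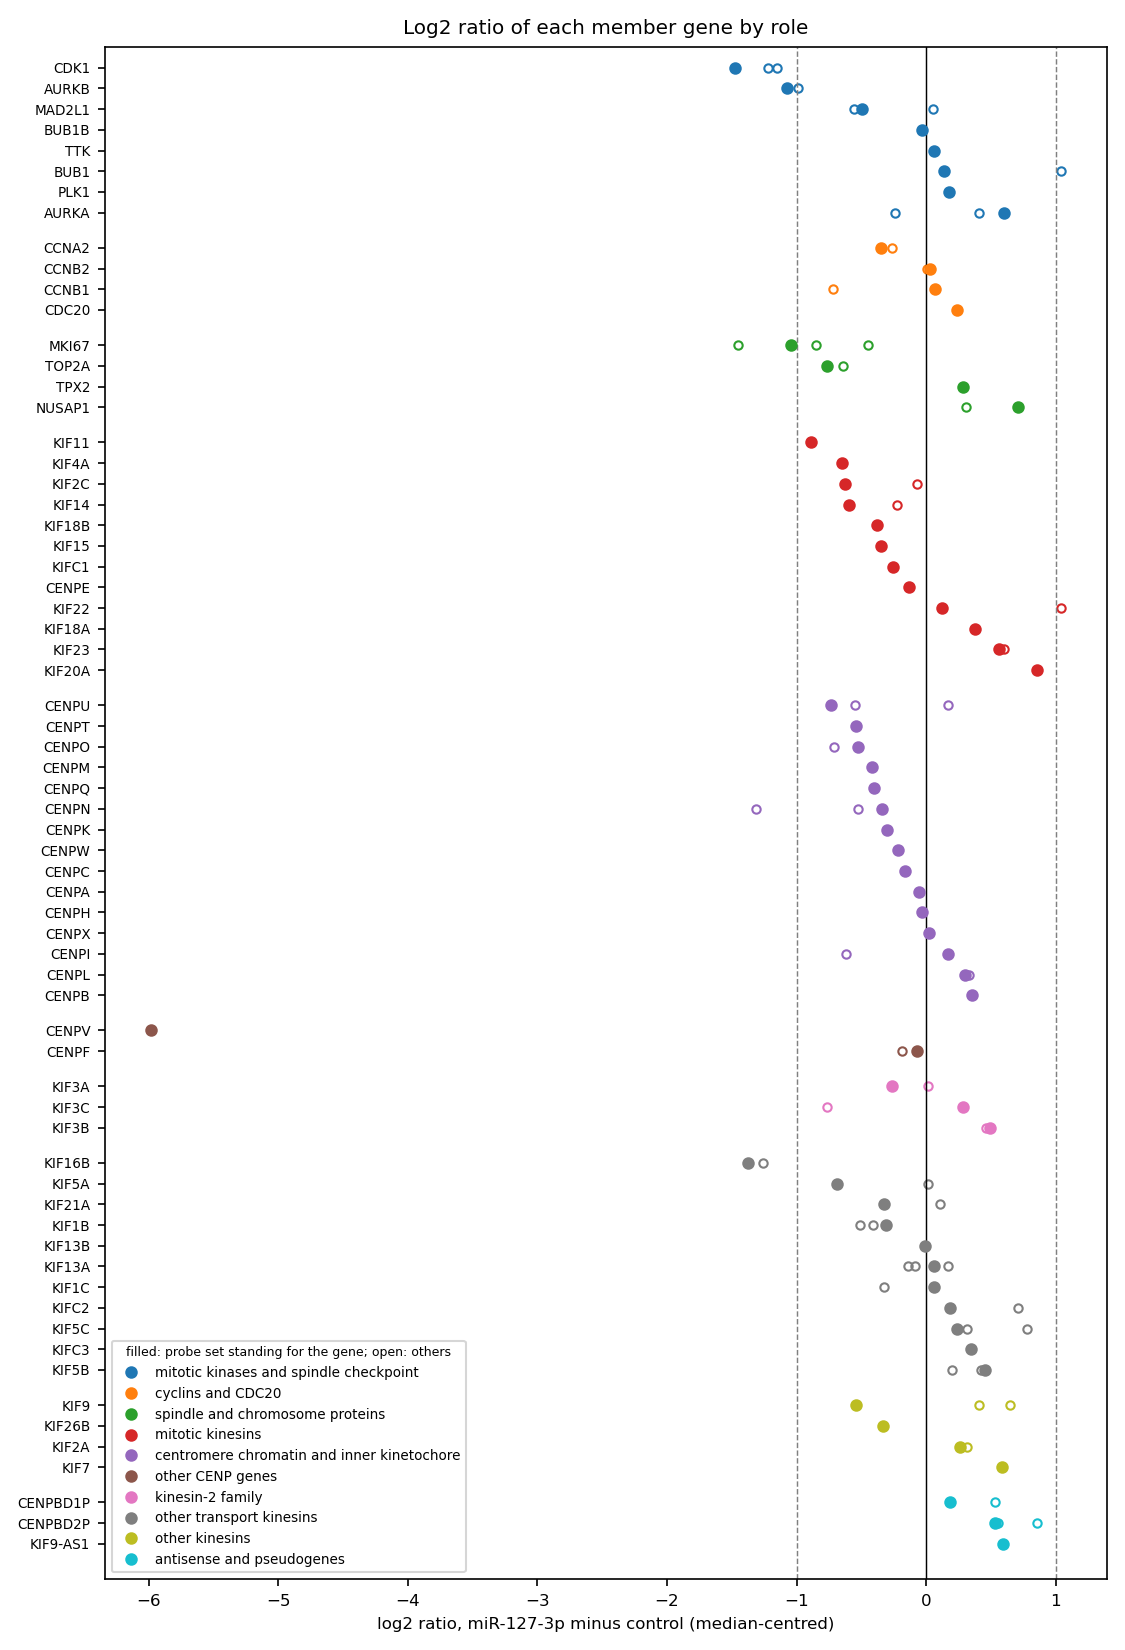
Log2 ratio (miR-127-3p minus control, median-centred) of the 66 genes above the filter, one per line and grouped by role, with filled points for the probe set that stands for the gene, open points for its other kept probe sets and dashed lines at 2-fold. Filled points beyond the dashed lines are those of CDK1, AURKB, MKI67, CENPV and KIF16B, all on the lower side, with CENPV drawn as measured although only its bound of -4.41 is given.

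The kinesin-2 motors, which carry cargo along cilia and axons, include KIF3B. KIF3B gave 2999 and 1627 with miR-127-3p at its 2 probe sets, against 2114 and 1172 in control cells. Both probe sets were higher with the microRNA, with log2 ratios of 0.49 and 0.46, a 1.41-fold and a 1.38-fold difference. KIF3A, with which KIF3B forms a motor, gave 1889 with miR-127-3p, against 2256 in control cells at the brighter probe set, a log2 ratio of -0.27, and 1855 with miR-127-3p, against 1821 in control cells at the other, a log2 ratio of 0.01. KIF3C, an alternative partner, gave 636 with miR-127-3p, against 517 in control cells, a log2 ratio of 0.29, but 191 with miR-127-3p, against 323 in control cells at its second probe set, a log2 ratio of -0.77. KIFAP3, the adaptor that binds cargo to this motor, was at 0.31, giving 1975 with miR-127-3p, against 1581 in control cells. KIF17, the homodimeric kinesin-2, was below the median on both arrays, giving 4.58 with miR-127-3p, against 4.12 in control cells.

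KIF16B, which moves early endosomes towards the cell edge, was the only transport kinesin past 2-fold. Its probe sets gave 297 and 127 with miR-127-3p, against 767 and 304 in control cells, log2 ratios of -1.38 and -1.26. Of the 11 transport kinesins outside the kinesin-2 family above the filter, 10 stayed within 2-fold and the median was 0.06. KIF5B, the widely expressed conventional kinesin, was the highest, giving 6607 with miR-127-3p, against 4790 in control cells, a log2 ratio of 0.45, with all 3 probe sets above 0, the lowest at 0.20. KIF5C was at 0.24, with probe sets up to 0.78. KIF5A, the neuronal form, gave 82.8 with miR-127-3p, below the array median, against 133 in control cells, a log2 ratio at or below -0.68. That probe set had passed the filter through the control array, so its direction was set by the filter. Another KIF5A probe set gave 103 with miR-127-3p, against 101 in control cells. A KIF5A probe set below the filter gave 137 with miR-127-3p, against 9.07 in control cells, and was at least 1.44-fold higher.

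The remaining cargo motors differed little between the arrays. KIF1B, which carries mitochondria and synaptic vesicle precursors, was at -0.31 with 3 probe sets from -0.51 to -0.31. KIF21A was at -0.33, KIF13B at -0.01, KIF13A at 0.06, KIF1C at 0.06, KIFC2 at 0.18 and KIFC3, a motor that moves towards the minus end, at 0.35. The other kept probe set lay on the opposite side of 0 for KIF21A, at 0.11, and for KIF1C, at -0.33. Kept probe sets of KIF13A ran from -0.14 to 0.17. The widest spread of these cargo motors was that of KIFC2, whose other probe set was at 0.71.

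Other kinesins above the filter were 4. KIF7, a ciliary-tip regulator of Hedgehog signalling, gave 322 with miR-127-3p, against 212 in control cells, a log2 ratio of 0.59. KIF2A, a microtubule depolymerase, was at 0.26 and KIF26B at -0.33. KIF9, a motor of motile cilia, was at -0.54 at its brightest probe set, giving 1216 with miR-127-3p, against 1760 in control cells. At the other kept ones it was at 0.41 and 0.65. Its antisense transcript KIF9-AS1 gave 126 with miR-127-3p, against 82.3, below the array median, in control cells, at least 1.33-fold higher. KIF9-AS1 had passed the filter through the miR-127-3p array, so its direction was set by the filter. All 3 of those KIF9 probe sets carry a suffix that marks possible cross-matching, and whether they also read KIF9-AS1, which overlaps the gene, was not tested. The pseudogenes CENPBD1P and CENPBD2P were at 0.19 and 0.53.

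The 14 genes without a probe set above the filter were KIF1A, KIF2B, KIF6, KIF12, KIF17, KIF19, KIF21B, KIF24, KIF25, KIF26A, KIF27, KIF1C-AS1, KIF23-AS1 and KIF25-AS1. Of these 2 had a probe set above the array median on 1 array, the control. KIF21B, a neuronal kinesin, gave 6.08 with miR-127-3p, against 128 in control cells, and was at least 1.54-fold lower, and KIF26A, below the array median with miR-127-3p, gave 97.2 in control cells, and was at least 1.17-fold lower. The other 12 genes gave signals below the median on both arrays, and no fold is given for them.

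Counted by probe set, 117 of the 165 were above the filter, and 10 of them were at least 2-fold lower, which is 8.55% against 8.08% of all kept single-symbol probe sets. At least 2-fold higher were 2, or 1.71% against 5.28%. The 10 belong to 6 genes, the 5 above and CENPN, and the 2 to BUB1 and KIF22. Of 37 genes with more than 1 kept probe set, 25 had all of them on the same side of 0, against 3659 of 5974 among all genes.

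Partner genes of mitosis and of kinesin transport were taken from 11 lists with 121 genes. Of 114 above the filter 5 were at least 2-fold higher, 3 at least 2-fold lower, which is 4.39% and 2.63% of them, and their median was 0.09. Shares of all genes were 5.06% and 8.67%. In the outer kinetochore list 1 of 17 was higher and 2 were lower. ZW10, which brings dynein to kinetochores, gave 209 with miR-127-3p, against 483 in control cells, a log2 ratio of -1.22. ZWINT, which binds it at the kinetochore, gave 2291 with miR-127-3p, against 4673 in control cells, a log2 ratio of -1.04. ZW10 and ZWINT each rest on 1 kept probe set, and that of ZWINT carries a suffix that marks possible cross-matching. SPDL1, which also recruits dynein there, was on the opposite side, giving 1546 with miR-127-3p, against 741 in control cells, a log2 ratio of 1.05. That probe set carries the same suffix, and the second SPDL1 probe set, without it, was at least 1.75-fold higher. NDC80, the main microtubule-binding subunit, was at 0.25.

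Regulators of CDK1 and of its transcription differed in both directions. Of 10 CDK1 regulators CDC25A, the phosphatase that activates it, was the only one past 2-fold, giving 236 with miR-127-3p, against 484 in control cells, a log2 ratio of -1.04, while PKMYT1, an inhibitory kinase, was highest at 0.60. CDKN1A, the p21 inhibitor of cyclin-dependent kinases, gave 4535 with miR-127-3p, against 945 in control cells, a log2 ratio of 2.25. MDM2, the ubiquitin ligase for p53, gave 5687 with miR-127-3p, against 2679 in control cells, a log2 ratio of 1.07, with 7 probe sets from 0.32 to 1.15. Of 12 transcription factors and DREAM subunits, the pocket protein RBL1 and LIN37, a core subunit, were both at 1.28, RBL1 giving 456 with miR-127-3p, against 186 in control cells. LIN37 gave 723 with miR-127-3p, against 296 in control cells, and a second RBL1 probe set was at least 1.23-fold higher. CDC25A, CDKN1A and LIN37 each rest on 1 kept probe set. Those of CDKN1A and LIN37 carry the suffix of possible cross-matching. FOXM1, an activator of late cell cycle genes, was at 0.48 and MYBL2 was the lowest at -0.45.

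**Figure D4:**
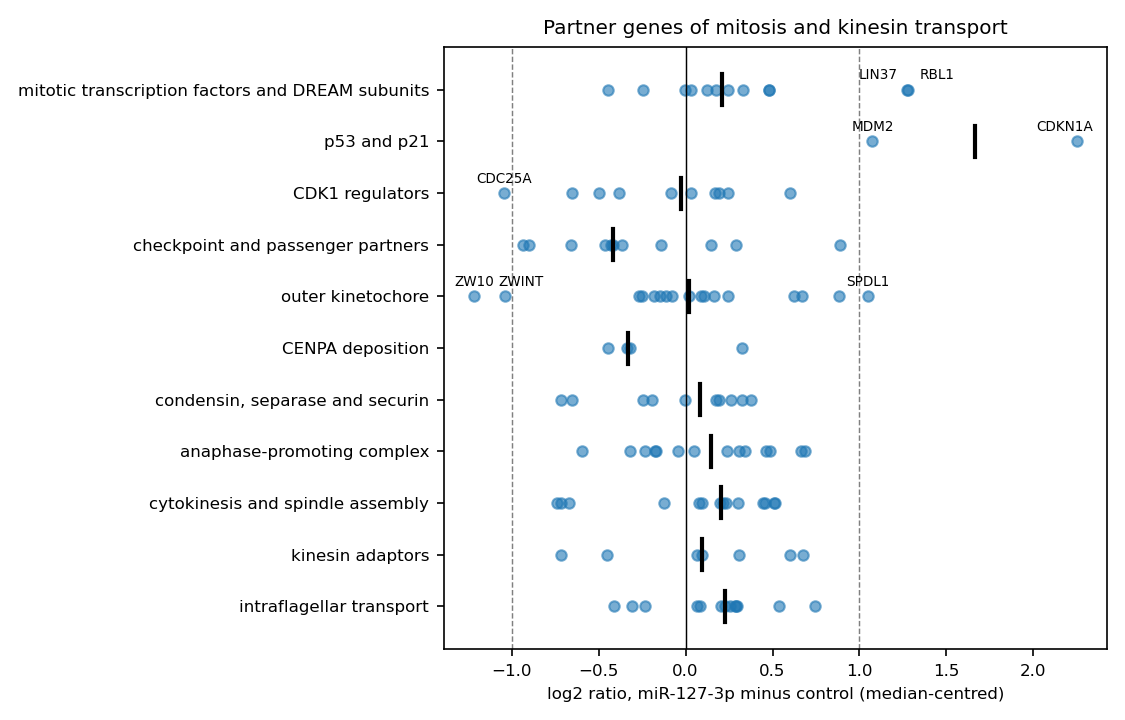
Log2 ratio (miR-127-3p minus control, median-centred) of each gene above the filter in 11 lists of partner genes, with a black bar at each list's median and dashed lines at 2-fold. Only 8 of 114 points lie beyond the dashed lines, and CDKN1A, at 2.25, lies farthest out.

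In 6 further lists no gene passed 2-fold at its brightest probe set. The 11 checkpoint and passenger partners had a median of -0.41, from HASPIN, the kinase that marks centromeres for AURKB, at -0.93 to MAD1L1 at 0.89. The other subunits of the AURKB complex were nearer 0, with CDCA8 at -0.41, INCENP at -0.14 and BIRC5, survivin, at 0.14. Genes of CENPA deposition ran from OIP5 at -0.45 to the CENPA chaperone HJURP at 0.32 and had a median of -0.33. Condensin, separase and securin genes ran from NCAPD3 at -0.72 to NCAPG at 0.38, with a median of 0.08. The anaphase-promoting complex ran from ANAPC10 at -0.59 to CDC26 at 0.69, with a median of 0.14. Other probe sets of that complex passed 2-fold, with CDC27 at 1.33, ANAPC5 at -1.27 and ANAPC10 at least 2.03-fold lower. Genes of cytokinesis and spindle assembly ran from ECT2, which activates RhoA at the cleavage furrow, at -0.74 to KNSTRN at 0.52, and their median was 0.21. NUMA1, a spindle pole protein, was at 0.23, but one other probe set was at least 2.27-fold higher and another was lower, by 1.67-fold or more. Over all 11 lists, 6 genes within 2-fold at the brightest probe set had another past it, among them NSL1 at -1.31 and TFDP1 at -1.14. Intraflagellar transport genes, the cargo of kinesin-2, ran from IFT172 at -0.41 to IFT57 at 0.75, with a median of 0.22. The 7 kinesin adaptors above the filter also stayed within 2-fold at that probe set, from TRAK1 at -0.71 to TRAK2 at 0.68.

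Promoter letters were compared with the ratios as a description. Of the 80 genes 63 had a promoter window in the RefSeq table. At least 1 CHR match, TTTGAA or TTCGAA, was present for 27 of them, and in 39.2% of their 74 windows against 16.4% of 35116 windows of all genes. Separately, TTTGAA was in 32.4% against 15.2%, TTCGAA in 6.76% against 1.45% and CCAAT in 56.8% against 34.6%. By role, a CHR match was present for 9 of 12 mitotic kinesins, 5 of 6 mitotic kinases and checkpoint genes and 3 of 3 spindle and chromosome genes. In between were 5 of 12 centromere chromatin and inner kinetochore genes, 2 of 4 cyclins and CDC20, and 1 of 2 other CENP genes. Matches were present for 0 of 4 kinesin-2 genes, 1 of 8 other transport kinesins, 1 of 9 other kinesins and 0 of 3 antisense genes and pseudogenes. Counts by role are by gene, over all its windows, while the shares above are by window. The 26 genes with a match that were above the filter had a median log2 ratio of -0.19 and ran from CDK1 at -1.48 to NUSAP1 at 0.71. The 27 without a match had a median of -0.13 and ran from CENPV, at or below -4.41, to KIF20A at 0.86. Genes with and without the letters covered overlapping ranges. At least 2-fold lower were 2 of the 26 genes with a match and 3 of the 27 without, against 8.67% of all genes. CENPV, which passed the filter through its control signal alone, is among the 3. Counts this small do not tell the groups apart.

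**Figure D5:**
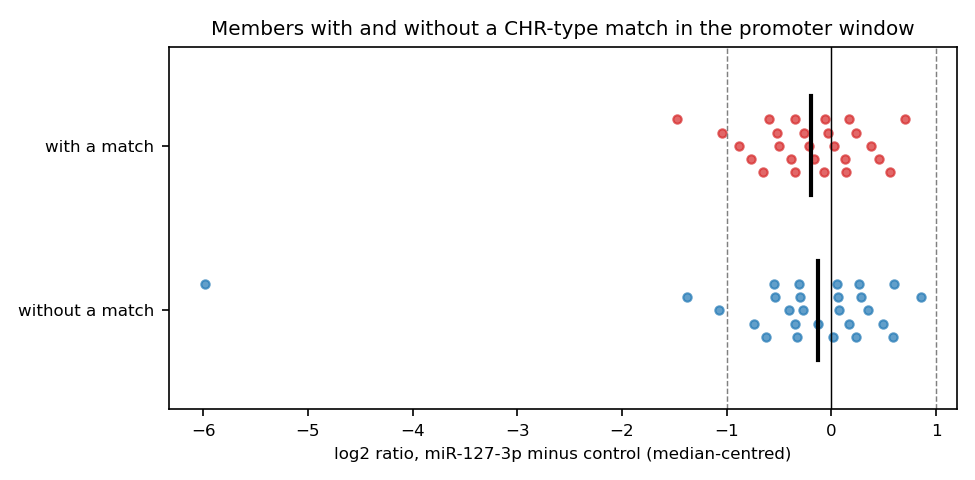
Log2 ratio (miR-127-3p minus control, median-centred) of 26 genes with and 27 genes without a TTTGAA or TTCGAA match in the promoter window, one point per gene, with black bars at the medians of -0.19 and -0.13 and dashed lines at 2-fold. Apart from CENPV, drawn as measured with a bound of -4.41, the points of both rows lie over much the same range.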

How the data were processed

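The authors deposited 1 linear signal intensity per probe set and array. How they summarised probes and corrected background is not given in the sources used here. Per the labels' protocols, Trizol RNA was labelled with an Affymetrix 3′ kit. Without the highest and lowest 2% of probe sets, both arrays had a mean of 500.1.

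The platform annotation gave 1 symbol for 41091 of 54613 non-control probe sets, several for 1801 and none for 11721, and 99.8% of symbols had an entry in a RefSeq table of GRCh38.p14. Only those with 1 symbol were used. Groups came from the genotype labels. Signals became log2(signal + 1), centred on the median ratio of 0.01, and the pseudocount of 1 understates differences of low genes. Signals below an array's median are given as bounds against that median, a choice made here and not a detection call. Beyond the listed genes, named genes were those past 2-fold, the highest and lowest of each list and CDKN1A, MDM2, FOXM1, MYBL2, GAPDH and ACTB. NSL1, TFDP1, CDC27, ANAPC5, NUMA1, NDC80, KIFAP3, CDCA8, INCENP, BIRC5 and the markers shown were chosen after their values were seen. The genes, lists and settings were chosen with earlier results of these data known. Alternatives varied the fold threshold, the filter, the scaling (as deposited, quantile, loess, equal 75th percentiles), the pseudocount (16 or 32), the choice of probe set and a floor at the array median. The counting was tested on simulated data. Python 3.11.15, numpy 2.4.6, pandas 2.3.3, statsmodels 0.14.6 and matplotlib 3.10.9 were used.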

Additional observations from a re-analysis of the deposited data

How the results depend on the processing

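No paired analysis was possible because each group has 1 array. The count of genes at least 2-fold higher, 0, became 2 without a filter and 5 at 1.5-fold. The count at least 2-fold lower, 5, became 3 with the 75th percentiles of the arrays set equal, 9 without a filter, 12 at 1.5-fold and 1 at 3-fold. Without a filter the shares of all genes were 12.8% higher and 17.2% lower, and at 1.5-fold 14.5% and 18.1%. The added genes without a filter are among those with dim signals. The median of -0.05 became 0.035 with equal 75th percentiles, a scaling that moved the median of all genes to 0.082 as well, -0.13 with the mean of all probe sets and -0.14 without cross-match suffixes. MKI67 was no longer 2-fold lower with equal 75th percentiles, pseudocount 32 or the mean of probe sets, and AURKB with equal 75th percentiles. CENPV left the filtered genes at the 75th percentile and above both medians, and CENPV and MKI67 without cross-match suffixes, where CENPN was lower. CDK1 and KIF16B were at least 2-fold lower under all 12 alternatives other than the fold threshold. KIF3B ranged between 0.45 and 0.57 over the same alternatives. Of 229 values of 20 single genes under the alternatives, 223 lay within 0.44 of the main value, the pooled probe set SD. Among the 6 that did not, AURKA became -0.23 and CENPU 0.18 without cross-match suffixes, KIF9 became 0.17 with the mean of probe sets, and CENPV lay between -5.38 and -4.41 with larger pseudocounts or the floor. With 1 array per group no setting can measure variation between cultures.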
